A study of Mus musculus with 2 samples.

Results

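A group of 8 mouse genes for small surface glycoproteins was followed across the cells of prostatic lesions. It held the prostate stem cell antigen gene Psca, the lymphocyte antigen 6 genes Ly6a, Ly6c1, Ly6c2, Ly6d and Ly6e, and Cd24a and Cd52. These were 8 of the 19320 features in the table. They were chosen from earlier results of the same data, namely their levels by cell class, by the level of the reporter EGFP and by barcode suffix, so these values are given as descriptions and without tests.

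The study asked how an androgen receptor transgene alters prostatic cells of the Osr1 lineage. Single cells were profiled from 2 mouse prostate samples with 1 library each, one a prostatic intraepithelial neoplasia (PIN) and the other an adenocarcinoma (PCa). Both samples came from R26 mTmG/hAR:Osr1 Cre/+ mice on a mixed C57BL/6 and 129S1/SvImJ background. Per the study, the PCa tissue came from older mice than the PIN tissue, so lesion and age cannot be told apart. Both therefore carried Osr1-driven Cre, which switches on a floxed human androgen receptor transgene (hARtg) and a membrane GFP reporter in the same cells and in their descendants, and no sample without the transgene was part of these data. The sources used here do not state whether a library held 1 animal or several. The table marks its cells by suffix 1 or 2 (barcode set 1 and set 2). No label ties a suffix to PIN or PCa, so the sets were compared as sets and no cell was assigned to a lesion.

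Proteins of the Ly6/uPAR family are short and fold into a domain of finger-like loops held by disulfide bonds, and most are tied to the cell surface by a glycosylphosphatidylinositol (GPI) anchor. In the prostate the family is known mainly through Ly6a, whose product is the progenitor marker Sca-1 of proximal ducts and basal cells, and through Psca, an antigen raised in many human prostate tumours. Cd24a and Cd52 lie outside the family but encode GPI-anchored glycopeptides as well. Cd24 is used to separate luminal cells, and Cd52 is made by lymphocytes and by the epithelium of the male reproductive tract.

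All 6 members of the family lay in one stretch of chromosome 15, in the order Psca (74714839 to 74717065), Ly6d, Ly6e, Ly6a, Ly6c1 and Ly6c2 (ending at 75112066), by the RefSeq table for GRCm38.p6. Cd24a lay on chromosome 10 (43579169 to 43584265) and Cd52 on chromosome 4 (134093538 to 134095073). Ly6c1 and Ly6c2 are near copies. Their longest GENCODE transcripts shared 98.0% of 796 aligned bases, with an identical run of 188 bases, so reads of the 2 genes could be exchanged in counting and Ly6c2 is reported as uncertain. Ly6a shared 86.4% of aligned bases with Ly6c1. Promoter sequences were at hand for Ly6c1 and Ly6c2, and these are shown because the pair had unlike levels over the cell classes. The sequence table holds 2 windows for each gene, one for each of 2 start sites. Shown are those of the outermost site, which run from 250 bases before it to 50 bases after it on the minus strand (RefSeq, GRCm38.p6), at chr15:75048788-75049087 for Ly6c1 and at chr15:75111922-75112221 for Ly6c2. These sites, 75048837 and 75111971, lie 83 and 95 bases inside the gene starts of the RefSeq gene table (75048920 and 75112066). Capitals mark a TATAAA match.

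Ly6c1: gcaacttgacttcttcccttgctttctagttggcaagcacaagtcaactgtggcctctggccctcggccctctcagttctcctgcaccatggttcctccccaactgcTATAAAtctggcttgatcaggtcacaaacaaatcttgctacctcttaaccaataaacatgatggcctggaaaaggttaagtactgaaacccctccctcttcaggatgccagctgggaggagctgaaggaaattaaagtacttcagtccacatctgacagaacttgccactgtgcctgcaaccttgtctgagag

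Ly6c2: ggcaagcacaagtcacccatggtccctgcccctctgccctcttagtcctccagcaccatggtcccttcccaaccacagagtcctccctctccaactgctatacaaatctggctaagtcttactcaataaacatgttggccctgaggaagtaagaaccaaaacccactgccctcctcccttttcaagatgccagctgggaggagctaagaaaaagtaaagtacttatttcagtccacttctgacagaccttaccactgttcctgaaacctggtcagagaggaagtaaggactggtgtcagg

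The windows shared 82.3% of 260 aligned bases. Of 5 motifs searched on both strands, TATAAA matched once, in the Ly6c1 window, starting at position -143 from the window's start site and 60 bases before the gene start of the gene table, and 13.6% of 32851 mouse promoter windows held it. The other 4 were not found in either window. Those were the full androgen response element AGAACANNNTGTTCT (0.00913% of windows), its single arm AGAACA (19%), which overlaps the full element, the interferon-stimulated element GAAANNGAAA (3.44%) and the gamma-activated site TTCNNNGAA (8.30%).

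The table held 15742 cells, 6332 in set 1 with a median of 17235 transcript molecules (UMIs) and 9410 in set 2 with a median of 14824.5. The sets shared 67 cell barcodes, and 155 called doublets of set 1 and 175 of set 2 were left out. Cells were clustered without the 8 genes, and clusters were named from marker genes as luminal-like, proximal-like, basal-like, endothelium-like, leukocyte-like or fibroblast-like. A cluster led by seminal vesicle secretion genes (Svs5, Svs3a) was kept apart as Svs-high. It held 155 cells of set 1 and 1677 of set 2. When cells were clustered without integration, the Svs5-led cluster held 0 cells of set 1 and 1779 of set 2. For the cells of set 1 the name Svs-high thus rests on the integration of the sets. Cluster 4, led by Krt6a and Clu and named proximal-like, held 1199 cells of set 1 and 159 of set 2. Without integration, the cluster led by these 2 genes held 1226 and 10. The place of set 2 cells in cluster 4 thus rests on integration too. The sets differed in make-up. Set 1 held 1212 luminal-like, 1744 proximal-like and 1709 basal-like cells, and set 2 held 5939, 353 and 367. Different clusters made up the luminal-like class, with clusters 5 and 7 (led by Ren1 and Tgm4, and by Msmb and Wfdc3) holding 48.8% and 47.7% of it in set 1, and clusters 0, 3 and 6 (led by Gulo, by Defa22 and by the cell-cycle genes Ube2c and Birc5) holding 51.6%, 27.7% and 12.8% in set 2. A cluster found mostly in 1 set may be that library rather than a cell type. Levels are UMIs of a gene per 1000000 UMIs of the cells summed (CPM), with exact Poisson 95% intervals in brackets that cover counting error only. They are tags from transcript ends, so a level is compared for the same gene between cells and not between genes. EGFP also differed, with a level of 9579 in luminal-like cells of set 2 and 1086 in those of set 1. In set 2 even leukocyte-like cells had 1020 EGFP CPM and 84.6% of them held an EGFP UMI.

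Psca was an epithelial gene of proximal-like, basal-like and Svs-high cells. Its level in proximal-like cells was 3108 (3093 to 3122) in set 1 and 1569 (1540 to 1599) in set 2. Basal-like cells had 1988 in set 1 and 623 in set 2. Svs-high cells gave 8682 in the 155 cells of set 1 and 151 in the 1677 cells of set 2. Luminal-like cells were lowest of the epithelial classes, at 821 (812 to 829.9) for set 1 and 51.6 (50.4 to 52.9) for set 2. Svs-high cells thus lay above the other epithelial classes in set 1 and below proximal-like and basal-like cells in set 2, and no intervals of the 4 classes overlapped within a set. Psca UMIs were also seen in classes that should lack the gene. Leukocyte-like cells gave 98.7 in set 1 and 66.0 in set 2, the latter above the luminal-like level of set 2. Clustered by themselves, they held a group of 13 cells of set 1 and 15 of set 2 led by epithelial genes (Wfdc2, Krt18 and Krt14). Psca was 67.8 or less in the other leukocyte groups of set 1. It was 24.8 or less in those of set 2 with 20 or more cells. The level in other classes of set 2 was 13.7 (9.01 to 19.9) in endothelium-like and 3.83 (1.66 to 7.56) in fibroblast-like cells, and 4.12 (1.51 to 8.97) in the 182 macrophage-like cells among the leukocytes. With every cell thinned to 3000 UMIs, a Psca UMI was held by 4.40% (3.89% to 4.95%) of the luminal-like cells in set 2, beside 4.61% (1.87% to 9.26%) of endothelium-like, 2.40% (0.886% to 5.15%) of leukocyte-like and 2.01% (0.740% to 4.32%) of fibroblast-like ones. At 6000 UMIs these shares were 6.44%, 2.63%, 2.50% and 0%. Unthinned, they were 14.2%, 7.06%, 4.64% and 1.94% at median depths of 16334, 8518, 7022 and 4519 UMIs. Whether the luminal-like share of set 2 lay above background thus depended on the class and the depth it was set beside. In set 1 the thinned share was 24.5% in luminal-like cells against 14.8% in leukocyte-like cells and 62.3% in proximal-like cells.

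Psca was uneven within the proximal-like class. Cluster 12, led by Msln, Wfdc2 and Krt4, had 9200 in set 1 and 672 in set 2. Cluster 4, led by Krt6a and Clu, had 968 in set 1 and 820.2 in set 2. Cluster 10, led by Sbp and Sbpl, had 7143 and 3215. Cluster 12 was thus the highest of these clusters for Psca in set 1 and the lowest in set 2, where cluster 10 was highest. It held 10.2% of proximal-like cells in set 1 and 21.5% in set 2. The order in set 2 turned when epithelial cells were clustered by themselves. The cluster led by Msln and Cxcl5 then had 13532 in set 1 and 4041 in set 2, the one led by Sbpl and Sbp 1405 and 747, and the one led by Krt6a and Clu 1031 and 578, so that the Msln-led cluster was highest in both sets. Among luminal-like clusters of set 1, cluster 7 had 1126 and cluster 5 had 388. In set 2 the level was 828 in cluster 7, 21.2 in cluster 0, 17.2 in cluster 3, 21.7 in cluster 5 and 25.4 in cluster 6. The value of cluster 7 rested on 190 cells and on where its boundary fell. In the separate clustering of epithelial cells, the cluster with the same leading genes, Msmb and Wfdc3, held 433 cells of set 2 and had 96.5.

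**Figure D1:**
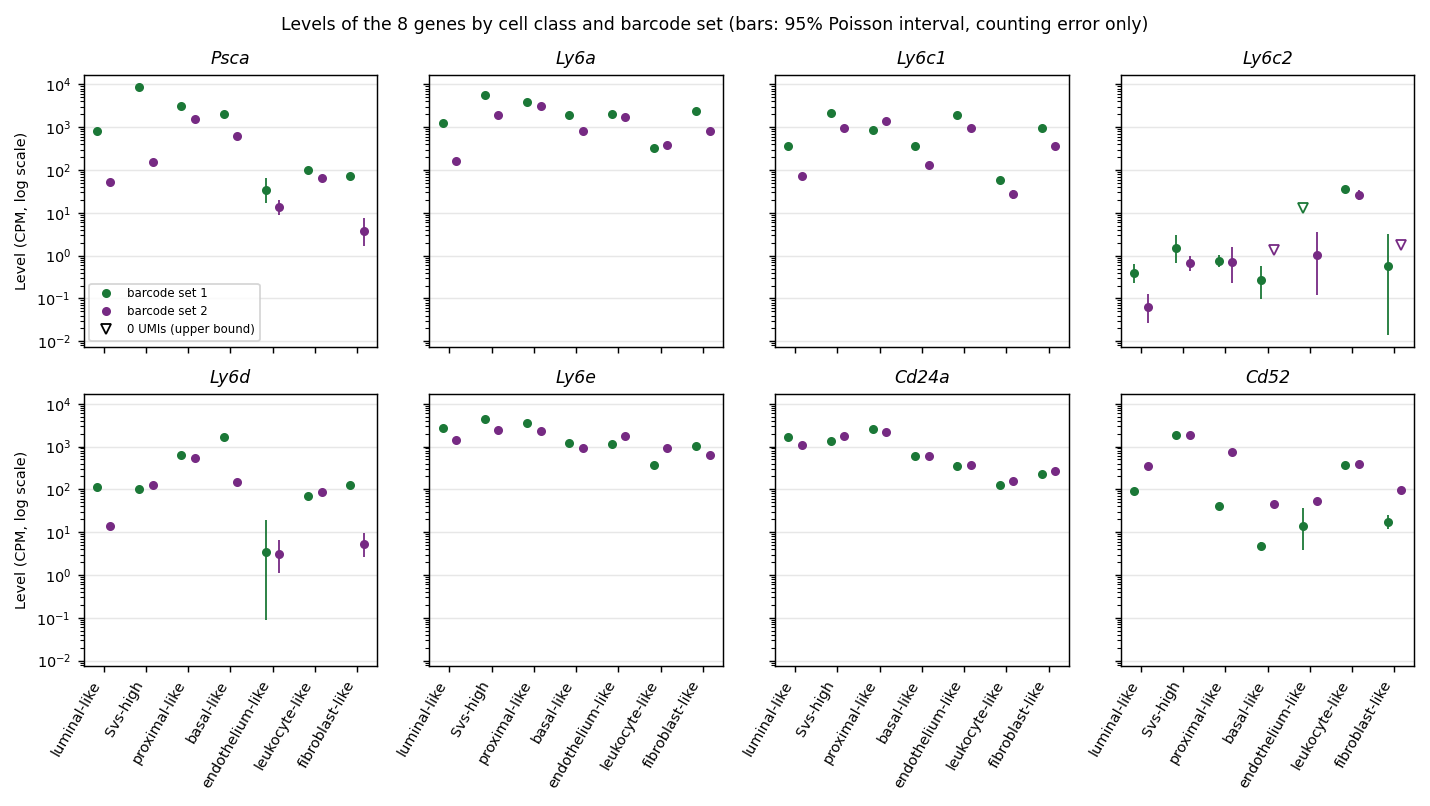
Levels of the 8 genes in CPM (log axis) by cell class in barcode set 1 and set 2, with bars for exact Poisson 95% intervals. Psca falls from 3108 in proximal-like cells of set 1 to 51.6 in luminal-like cells of set 2, whereas Cd52 is highest in Svs-high cells of both sets. For set 1 the name Svs-high rests on integration.

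Ly6a and Ly6c1 were shared by epithelium, endothelium and stroma. Ly6a in proximal-like cells was 3884 (3868 to 3901) in set 1 and 3111 (3071 to 3153) in set 2. In endothelium-like cells it was 2009 (1848 to 2180) in 40 cells of set 1 and 1694 (1637 to 1752) in 170 cells of set 2. Basal-like cells had 1913 in set 1, within the interval of the endothelium-like cells, and 806 in set 2. Luminal-like cells had 1244 in set 1 and 164 in set 2. So Ly6a was lower in luminal-like than in proximal-like cells in each set, with intervals well apart. Leukocyte-like cells gave 335 and 379. Svs-high cells held 5593 and 1908, and fibroblast-like cells 2405 and 834.

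Ly6c1, best known as an endothelial antigen in its family, was 1887 (1731 to 2053) in endothelium-like cells of set 1 and 972 (929 to 1017) in those of set 2. Proximal-like cells had 878 in set 1 and 1421 (1393 to 1449) in set 2, so that the proximal-like class lay below the endothelium-like class in set 1 and above it in set 2. Svs-high cells had 2168 in set 1 and 954 in set 2, the latter within the endothelium-like interval. Luminal-like cells gave 359 and 71.1 and basal-like cells 361 and 131. Leukocyte-like cells were the lowest of these classes at 59.4 and 27.2. The thinned share of luminal-like cells with a Ly6c1 UMI in set 2 was 7.69% (7.03% to 8.40%), beside 4.80% (2.50% to 8.23%) in leukocyte-like cells, intervals that overlap. Unthinned, these shares were 25.8% and 12.5% at median depths of 16334 and 7022 UMIs.

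Endothelial RNA was measured beside these genes. The summed level of 8 endothelial markers was 17.3 and 37.1 in proximal-like cells of sets 1 and 2, and 11144 and 9353 in endothelium-like cells. Among proximal-like cells without a UMI of any of these markers, Ly6a was 4069 and 3097, and Ly6c1 was 919 and 1456. These levels are close to those of all proximal-like cells. Ly6a and Ly6c1 were also high and low in the same cells. Over cells thinned to 3000 UMIs, Spearman's rho between them was 0.849 and 0.720 in Svs-high cells, 0.605 and 0.776 in proximal-like cells, 0.613 and 0.316 in luminal-like cells and 0.447 and 0.248 in the basal-like class of sets 1 and 2. These values are across cells of 1 library each, which are not independent replicates. The genes' transcripts are 86.4% identical, with a longest identical run of 48 bases, and whether reads were exchanged between them was not tested.

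Within the proximal-like class, Ly6a and Ly6c1 were ordered by cluster as follows. In set 2, Ly6a was 5531 in cluster 4, 1331 in cluster 12 and 849 in cluster 10. In set 1 it was 3752, 5194 and 3706 in the same clusters. Ly6c1 was 2609, 219 and 523 in set 2 and 871, 954 and 864 in set 1. Cluster 4 was therefore the highest of the 3 for both genes in set 2, and cluster 12 in set 1. Clustered by themselves, the Krt6a-led cluster was likewise highest of the 3 in set 2 for Ly6a (4592) and Ly6c1 (2157), and the Msln-led cluster in set 1 (6321 and 1490).

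Ly6c2, known as a monocyte antigen, was highest in leukocyte-like cells. It had 394 UMIs in all retained cells. Leukocyte-like cells held 223 of them in set 1, a level of 35.7 (31.2 to 40.7), and 57 in set 2, a level of 26.3 (19.9 to 34.1). In set 1 Svs-high cells came next with 1.55 (8 UMIs). Among re-clustered leukocyte-like cells of set 1, the highest level was 324 (267 to 389.9) in 31 cells named B or plasma cell-like from Jchain, Mzb1 and Cd79a. Macrophage-like cells had 91.8 in set 1 and 30.2 in set 2, and natural killer or innate lymphoid-like cells had 29.7. Only 5.47% and 6.07% of leukocyte-like cells held a Ly6c2 UMI, at median depths of 3819 and 7022 UMIs, beside 0.351% of basal-like cells of set 1 at 10864.

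Ly6d, a surface protein of stratified epithelia and of early B lineage cells, was highest in the basal-like cells of set 1 at 1643 (1626 to 1660), and was 145 (131 to 159.6) in the basal-like cells of set 2. Proximal-like cells had 644 and 549. Thus basal-like cells lay above proximal-like cells in set 1 and below them in set 2. With cells thinned to 3000 UMIs, 59.7% of basal-like cells of set 1 and 11.6% of those of set 2 held a Ly6d UMI, whereas of 152 endothelium-like cells of set 2, which should lack it, 0.658% did. Unthinned, the basal-like shares were 75.1% and 17.2%, at median depths of 10864 and 5511 UMIs, and the endothelium-like share was 3.53% at 8518. Luminal-like cells had 115 in set 1 and 13.9 in set 2. Within the proximal-like class cluster 12 led, with 1746 and 1291, and cluster 10 was lowest with 239.6 and 13.3. The 31 B or plasma cell-like cells of set 1 had 469 (399 to 547).

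Ly6e and Cd24a were present in nearly every luminal-like and proximal-like cell. Ly6e, an interferon-inducible member, was 3610 and 2317 in proximal-like, 2718 and 1442 in luminal-like, and 1223 and 942 in the basal-like cells of the 2 sets. Svs-high cells had the highest levels, 4436 and 2484. Endothelium-like cells had 1151 (1030 to 1282) in set 1, an interval that holds the basal-like value, and 1799 (1740 to 1859) in set 2. The leukocyte-like class was lowest in set 1, at 369, and had 946 in set 2. Macrophage-like cells, the larger share of this class in set 2, had 268 in set 1 and 1007 in set 2. The part of make-up in the class levels was not tested. Cd24a had a higher level in each epithelial class than in the other classes. It was 2590 and 2205 in proximal-like, 1632 and 1092 in luminal-like and 1346 and 1803 in Svs-high cells. Basal-like cells had 609 (599 to 619) and 612 (583 to 642), which did not differ beyond counting error. Endothelium-like cells had 356 and 368, fibroblast-like cells 224 and 272, and leukocyte-like cells 128 and 156. A cluster left unnamed, led by Rgs5 and Col1a1, had 489.8 (440.5 to 543) in 89 cells of set 2. Thinned to 3000 UMIs, 61.25% (49.7% to 71.9%) of these cells held a Cd24a UMI. Of basal-like cells of set 2, 67.4% (62.2% to 72.4%) did, so basal-like cells were not cleanly set apart.

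Cd52 was higher in Svs-high cells than in leukocytes. The level in Svs-high cells was 1855 (1818 to 1892) in set 1 against 1846 (1832 to 1859) in set 2. As given above, the cells of set 1 bear this name only through the integration of the sets. In leukocyte-like cells it was 368 (353 to 383) and 398 (371 to 425). Proximal-like cells had 39.9 (38.2 to 41.6) in set 1 and 751 (731 to 772) in set 2. Luminal-like cells had 92.2 and 355 (352 to 358), so that in set 2 luminal-like cells came close to the leukocyte level. In basal-like cells the level was 4.76 in set 1 and 45.9 (38.2 to 54.6) in set 2. That is no higher than the 52.1 (42.5 to 63.2) of endothelium-like cells and the 94.0 of fibroblast-like cells of set 2, so basal-like Cd52 was read as background. With cells thinned to 3000 UMIs, Cd52 was seen in 9.01% of basal-like and 9.21% of endothelium-like cells of set 2, against 18.3% and 22.9% unthinned, but in 39.9% of luminal-like, 41.0% of proximal-like and 83.6% of Svs-high cells.

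Leukocyte RNA was low in these epithelial cells. The summed level of 6 leukocyte markers was 14 and 9.53 in Svs-high, 14.7 and 3.85 in luminal-like and 15.1 and 21.4 in proximal-like cells of sets 1 and 2, against 3301 and 2496 in leukocyte-like cells. In cells without a UMI of any of the 6 markers, Cd52 was 1743 and 1843 in Svs-high, 92.9 and 343 in luminal-like and 37.0 and 694 in proximal-like cells. Each of these is close to the level in the whole class.

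**Figure D2:**
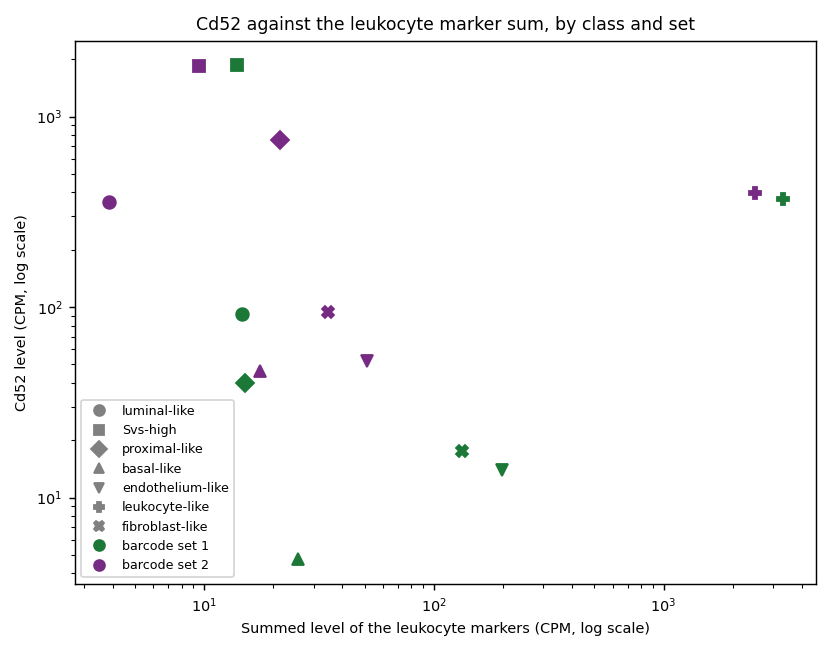
Cd52 level against the summed level of 6 leukocyte markers (both in CPM, log axes) by cell class and barcode set. Svs-high cells lie above the leukocyte-like cells on the Cd52 axis, at 1855 and 1846, while their marker sums are 14 and 9.53.

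Within the proximal-like class of set 2, Cd52 was 1553 in cluster 4, 83 in cluster 10 and 37.5 in cluster 12. In set 1 the same clusters had 51.6, 16.7 and 9.04. Cluster 4 was thus the highest of them in both sets. Among luminal-like clusters of set 2, the level was 581 in cluster 3, 513 in cluster 7, 456 in cluster 6, 306 in cluster 5 and 154 in cluster 0. In set 1, cluster 5 had 182 and cluster 7 27.5. From cell to cell in luminal-like cells, Spearman's rho between Cd52 and Psca was -0.010 and 0.009 in sets 1 and 2. In leukocytes of set 1 the B or plasma cell-like group had the most Cd52, 1062 (956 to 1176), followed by dendritic-like cells with 704 (633 to 781), while natural killer or innate lymphoid-like cells had 251.

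**Figure D3:**
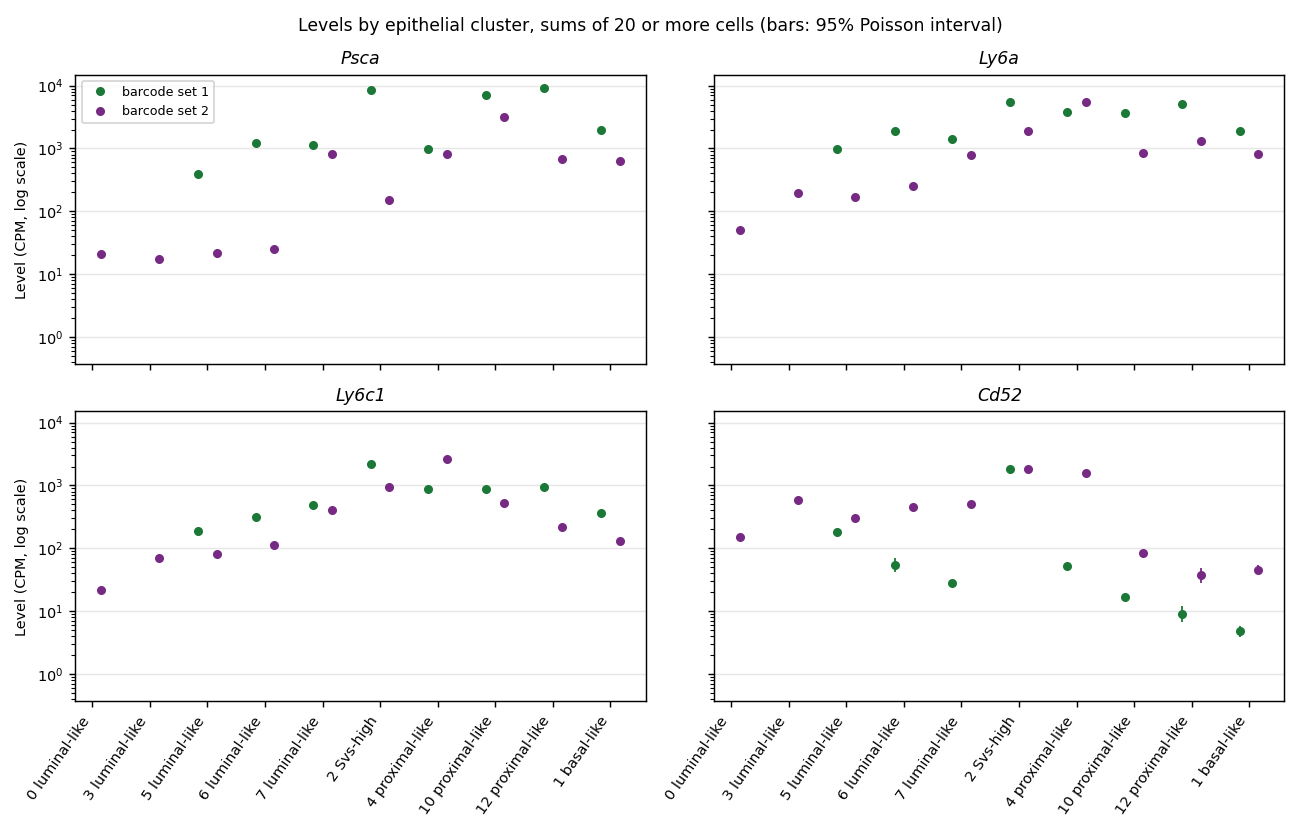
Levels of Psca, Ly6a, Ly6c1 and Cd52 in CPM (log axis) by epithelial cluster and barcode set, for sums of 20 or more cells, with exact Poisson 95% intervals. Psca peaks in cluster 12 in set 1 (9200) and in cluster 10 in set 2 (3215, an order that turned in a separate clustering of epithelial cells), whereas in set 2 Ly6a, Ly6c1 and Cd52 peak among proximal-like clusters in cluster 4 (5531, 2609 and 1553). The place of set 2 cells in cluster 4 rests on integration.

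EGFP marks cells in which Cre was active, and hARtg is switched on by the same Cre. Levels of hARtg are those of the feature named ARQ, which was taken to be the transgene. In set 1, cells with 5 or more EGFP UMIs (EGFP-high) were set beside cells with 0 (EGFP-0). hARtg was 554 against 25.6 in luminal-like, 386 against 25.4 in proximal-like and 747 against 108 in basal-like cells, EGFP-high first. In the same order, median depth was 35292 against 26040, 34838 against 25703 and 13421 against 9670 UMIs. EGFP-high cells were thus also the deeper ones in each class. In the luminal-like class Psca was 2259 (2230 to 2288) in 276 EGFP-high cells and 196 (189 to 202) in 569 EGFP-0 cells, 11.6-fold higher (11.1 to 12, exact conditional binomial interval). Ly6c1 was 699 against 209, or 3.35-fold. Ly6c2 had 6 UMIs against 4, 2.29-fold with an interval of 0.543 to 11. So 3 of 8 members were past 2-fold. Of the 7 members with a mean of 10 CPM or more, 2 were (Psca and Ly6c1), beside 5.79% of 7248 features held to the same mean. That contrast was among those that chose the members, so nothing is read from this count or from those that follow. Ly6a was 1841 against 1028, 1.79-fold (1.75 to 1.83). Cd24a was lower, 1106 against 1975, a log2 ratio of -0.84. Cd52 was 99.9 against 102, a log2 ratio of -0.03 (-0.15 to 0.08). The sides differed in make-up, since cluster 7 held 81.2% of EGFP-high and 29.4% of EGFP-0 luminal-like cells. Marker levels moved too, with summed basal markers of 573 against 249 and a median log2 ratio of 1.12 over 8 proximal markers, whose sums were 7691 and 8796. Their part in the ratios was not tested. Within cluster 7 alone Psca was 2138 against 270.5, a log2 ratio of 2.98, Ly6c1 had 1.63 and Cd52 2.55.

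In proximal-like cells of set 1, Psca was 11826 in 192 EGFP-high cells and 1857 in 891 EGFP-0 cells, 6.37-fold higher (6.30 to 6.44). Cd52 was 95.7 (88.7 to 103) against 37.8 (35.4 to 40.3), 2.54-fold. Those 2 of 8 members passed 2-fold. At a mean of 10 CPM or more they were 2 of 7, beside 1.63% of features. Ly6c1 was 1.93-fold and Ly6a 1.78-fold higher, and Cd24a had a log2 ratio of -0.36. Cluster 12, the cluster with the most Psca in set 1, held 14.1% of EGFP-high and 10.1% of EGFP-0 cells. Fewer than 50 cells of cluster 12 were EGFP-high, so no ratio was taken within it. In cluster 10 Psca was 22040 against 2907, a log2 ratio of 2.92. These levels depended on where the boundary of cluster 10 fell. In the separate clustering of epithelial cells, the cluster led by Sbpl and Sbp had a Psca level of 1405 in 304 cells of set 1. No ratio by EGFP was taken there. In cluster 4 the Psca ratio was 1.20 on the log2 scale and that of Cd52 1.78.

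In basal-like cells of set 1, Psca was 2985 in 499 EGFP-high and 1418 in 865 EGFP-0 cells, 2.11-fold. Ly6c1 was 669 against 202, 3.31-fold (3.14 to 3.49). Ly6e was 1925 against 846, 2.28-fold, and Cd52 9.56 (76 UMIs) against 2.04 (20 UMIs), both below the endothelium-like level of that set, 13.9 (4 UMIs). These were 4 of the 7 members with a ratio. Without Cd52, which had a mean under 10 CPM, they were 3 of 6, beside 4.60% of features. Ly6d went the other way, 990 against 1951, a log2 ratio of -0.98 (-1.02 to -0.94). The summed level of 6 basal markers moved alongside, 8989 in EGFP-high and 16455 in EGFP-0 cells, and its part in the Ly6d value was not tested. Cd24a had 639 against 602, 1.06-fold. By EGFP tiers of 0, 1 to 4, 5 to 19 and 20 or more UMIs, Psca was 196, 445, 725 and 2472 in luminal-like, 1857, 1713, 3331 and 13764 in proximal-like and 1418, 1494, 2359 and 3017 in basal-like cells. Each class thus had its highest Psca level in the top tier, and the tiers of 0 and 1 to 4 were close in proximal-like and basal-like cells. Basal-like Ly6d over the same tiers was 1951, 2104, 1267 and 976.

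**Figure D4:**
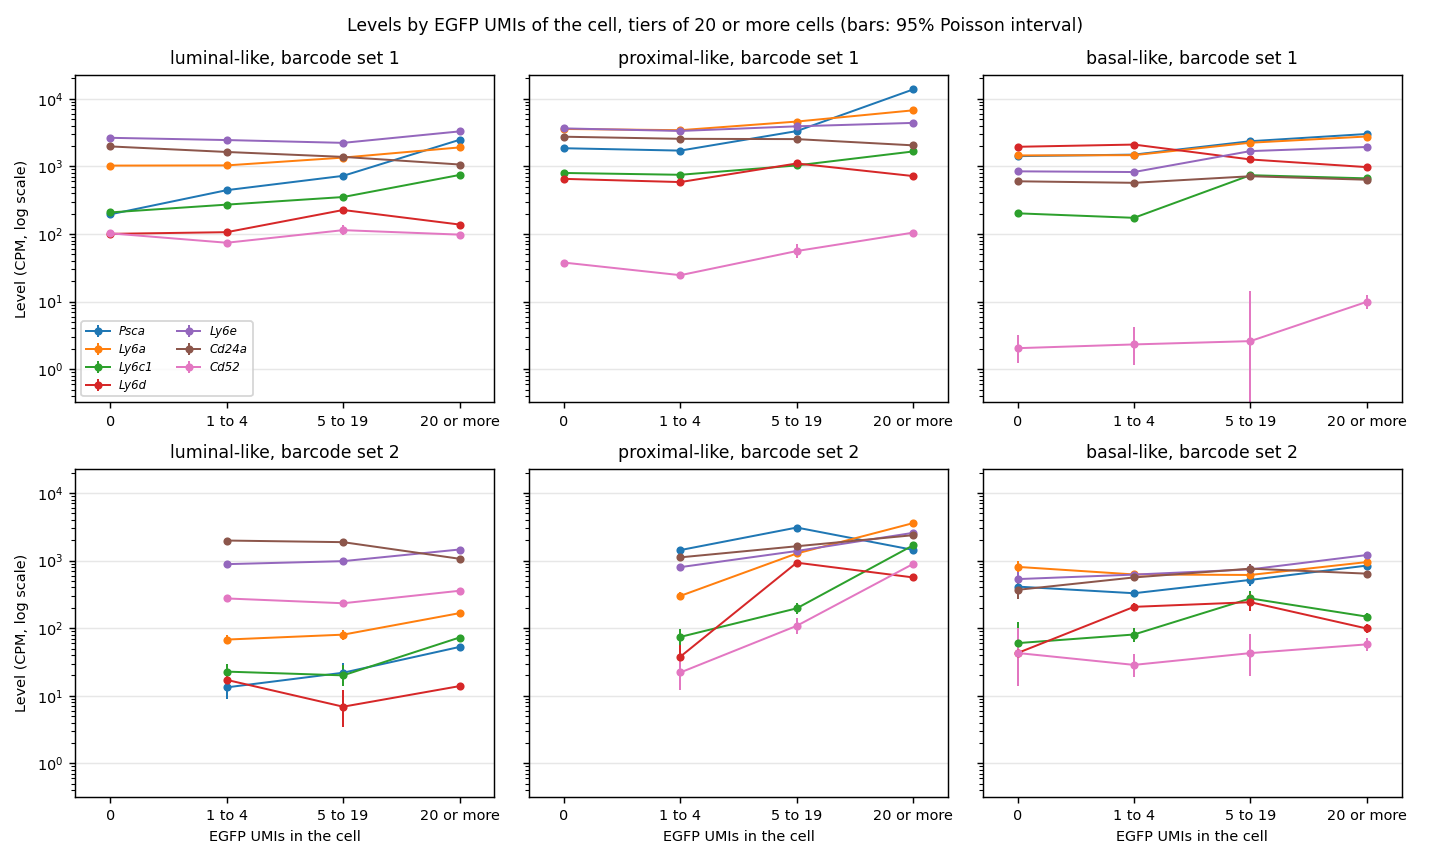
Levels of 7 members (all but Ly6c2) in CPM (log axis) by EGFP tier, cell class and barcode set, with exact Poisson 95% intervals. Psca of set 1 is highest in cells with 20 or more EGFP UMIs in all 3 classes, at 2472, 13764 and 3017, and Ly6d of basal-like cells is lowest there, at 976.

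In set 2 fewer than 50 cells of each class held no EGFP UMI, too few for the same split, so cells with 20 or more were set beside cells with 0 to 4, a division chosen after the data were seen. With the higher tier first, hARtg was 1529 against 192.5 in luminal-like, 950 against 740.5 in proximal-like and 800 against 390 in basal-like cells. In the luminal-like class Psca was 52.8 in 5685 cells of the higher tier and 12.6 (8.54 to 17.8, 31 UMIs) in 129 cells of the lower. The Psca ratio turned to -3.51 on the log2 scale when cells were clustered without integration. Ly6a was 167 against 65.7, 2.54-fold, and Ly6c1 72.8 against 21.9, 3.33-fold. These were 3 of 7 members, beside 26.8% of features. Cd24a was again lower, 1064 against 1962, a log2 ratio of -0.88. The tiers differed in make-up. Cluster 0 held 53.1% of the higher tier and cluster 5 92.2% of the lower. Within cluster 5, Ly6c1 had a log2 ratio of 2.93, Ly6a 2.24 and Psca 1.37.

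In proximal-like cells of set 2, Cd52 was 893 in 272 cells of the higher tier and 21.1 (11.8 to 34.8, 15 UMIs) in 51 cells of the lower, 42.3-fold (25.6 to 75.6). Between these tiers hARtg differed only 1.28-fold, and median depth was 18773 against 10354 UMIs. Ly6c1 was 1685 against 73.2, 23.0-fold, and Ly6a 3586 against 439, 8.16-fold. Ly6d was 564 against 156, Ly6e 2575 against 822 and Cd24a 2376 against 1177. These were 6 of 7 members, beside 17.0% of features. Seminal vesicle markers summed to 296 in the higher and 29.6 in the lower tier, which was not tested as a part of these ratios. Psca was the exception, at 1440 against 1591, a log2 ratio of -0.14 (-0.23 to -0.05). Cluster 4 held 56.2% of the higher tier and cluster 10 74.5% of the lower, and the members' levels in these clusters differ as given above, so the EGFP tier and the cluster cannot be told apart here. In basal-like cells of set 2, Psca was 843 in 165 cells against 338 in 180 cells, 2.49-fold (2.22 to 2.81), the 1 of 7 members past 2-fold beside 4.80% of features. Ly6e was 1208 against 611, 1.98-fold, and Ly6d 99 against 189, a log2 ratio of -0.93 (-1.25 to -0.62), the same direction as in set 1.

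Set 2 was then compared with set 1, class by class. The sets are different libraries with different shares of clusters and different EGFP levels, so set, cluster and EGFP cannot be told apart in these ratios. In luminal-like cells Psca had a log2 ratio of -3.99, Ly6a -2.92, Ly6d -3.05, Ly6c1 -2.33 and Ly6c2 -2.67 (8 against 16 UMIs), while Cd52 was 3.85-fold higher (3.72 to 3.98). Ly6e had -0.91 and Cd24a -0.58. So 6 of 8 members passed 2-fold, 5 of them lower. Without Ly6c2, which had a mean under 10 CPM, they were 5 of 7, beside 24.3% of features. Markers of several cell types moved alongside. The summed luminal markers were 17337 in set 2 and 40322 in set 1, the proximal ones 2915 and 8409, the basal ones 55.9 and 346 and the seminal vesicle ones 158 and 0.176. Their part in the members' ratios was not tested. Within single clusters Psca was lower in set 2 as well, with log2 ratios of -4.16 in cluster 5, -0.44 in cluster 7, -5.58 in cluster 6 and -5.85 in the Svs-high cluster 2. Cd52 was higher in set 2 in clusters 5 (0.75), 7 (4.22) and 6 (3.05), and had a log2 ratio of -0.01 in cluster 2.

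In proximal-like cells Cd52 was 18.8-fold higher in set 2 (17.9 to 19.8), the 1 of 8 members past 2-fold. At a mean of 10 CPM or more it was 1 of 7, beside 11.5% of features. Cluster 4 held 45.0% of the proximal-like cells of set 2 and 68.8% of those of set 1. Without integration, the cluster led by Krt6a and Clu held 10 cells of set 2, so the place of set 2 cells in cluster 4 rests on integration. The summed level of 5 seminal vesicle markers was 250.1 in set 2 and 0.273 in set 1, and its part in the Cd52 ratio was not tested. Psca had a log2 ratio of -0.99, Ly6e -0.64 and Ly6c1 0.69. Cluster by cluster, Cd52 was higher in set 2 in cluster 4 (4.91), cluster 10 (2.31) and cluster 12 (2.05). Ly6a divided, with 0.56 in cluster 4 and -2.13 in cluster 10. In basal-like cells 5 of 7 members passed 2-fold, beside 7.43% of features. Ly6d had a log2 ratio of -3.51 (-3.65 to -3.36), followed by Psca with -1.67, Ly6c1 with -1.46 and Ly6a with -1.25. Cd52 was 9.63-fold higher but at the background level given above, and Cd24a had 0.01 (-0.07 to 0.08).

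In endothelium-like cells 2 of 7 members passed 2-fold, Cd52 with a log2 ratio of 1.90 (103 against 4 UMIs) and Psca with -1.35 (27 against 10 UMIs). At a mean of 10 CPM or more they were 2 of 6, beside 23.2% of features. Both rest on few UMIs in a class that should lack them. Ly6c1 had -0.96 (-1.09 to -0.82) and Ly6e 0.64. In leukocyte-like cells Ly6e was 2.56-fold higher in set 2 and Ly6c1 had -1.13, 2 of 8 members, beside 40.0% of features. The Ly6c1 level of this class in set 1, 59.4, includes the group of 13 cells led by epithelial genes. Every other re-clustered leukocyte group of set 1 had 28.75 or less. Macrophage-like cells had 11.7 (4.30 to 25.5) in set 1 and 17.2 (11.1 to 25.35) in set 2, intervals that overlap. The part of the epithelial-led group in the ratio was not tested. The leukocyte classes differed in make-up, with cluster 8, which is led by Ccl5 and Pdcd1, holding 66.5% of set 1 and cluster 11, which is led by Lyz2 and C1qa, 83.6% of set 2. Within cluster 11 the Ly6e ratio was 0.49. When leukocyte-like cells were clustered by themselves, macrophage-like cells had 268 (225 to 316) in 52 cells of set 1 and 1007 (956 to 1060) in 182 cells of set 2, a wider gap.

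**Figure D5:**
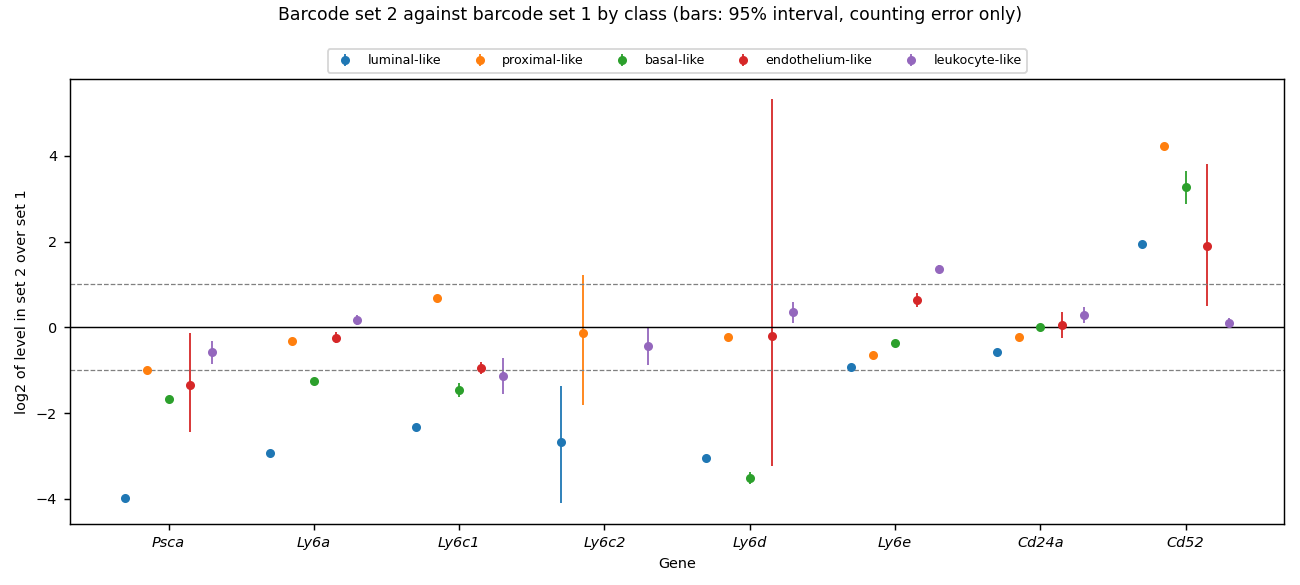
Log2 ratios of set 2 over set 1 for the members by cell class, with exact conditional 95% intervals. Cd52 lies above 0 in luminal-like (1.94), proximal-like (4.24) and basal-like cells (3.27), and Psca below 0 in each (-3.99, -0.99 and -1.67).

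The rest of the pathway was taken from a list of 34 other Ly6/uPAR genes, of which 28 were in the table, and from 28 genes of GPI anchor synthesis and attachment, of which 27 were in the table. Only those with a mean of 10 CPM or more in a comparison were counted. Among EGFP-high cells of set 1, 1 of 5 family genes was past 2-fold in luminal-like, 2 of 6 in proximal-like and 2 of 5 in basal-like cells, all higher, beside the 5.79%, 1.63% and 4.60% of all features past 2-fold in either direction. Their median log2 ratios were 0.46, 0.84 and -0.55, the basal-like median being below 0. Between the EGFP tiers of set 2, 1 family gene was higher and 1 lower of 4 in luminal-like cells. In proximal-like cells 3 were higher and 1 lower of 5, and in basal-like cells 1 was higher and 0 lower of 4. Of all features, 26.8%, 17.0% and 4.80% were past 2-fold in these comparisons. Ly6k, a family gene best known from testis, was past 2-fold in proximal-like cells of both sets, 158 against 35.9 in set 1 and 50.4 against 12.7 (9 UMIs) in set 2. For the GPI genes of set 1 these counts were 0 of 19, 0 of 17 and 2 of 12, with median log2 ratios of -0.07, -0.09 and 0.31 beside -0.15, -0.10 and -0.08 over all features. In set 2 against set 1 the family counts were 2 higher and 2 lower of 5 in luminal-like, 1 and 3 of 7 in proximal-like and 1 and 3 of 5 in basal-like cells. Of all features, 664 were higher and 1106 lower of 7278 in luminal-like cells. These numbers were 390 and 452 of 7314 in proximal-like and 196 and 294 of 6593 in basal-like cells. The family medians were 0.17, -0.33 and -1.34 beside -0.14, -0.12 and 0.00 over all features. For GPI genes, 4 of 17 were lower in luminal-like, 0 of 18 in proximal-like and 1 of 14 in basal-like cells, with 0 higher in each.

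The pattern over 30 sums of cells by cluster and set was also set beside that of 7409 features. The correlations describe these sums, which share 2 libraries. Psca was most like Wfdc2 (Pearson's r of 0.923), Krt7 (0.907) and Krt6a (0.885). Ly6d was likewise close to the keratin genes Krt6a (0.868) and Krt7 (0.846), and then to Grpel2 (0.844). Ly6a was most like Ly6c1 (0.901), Anxa3 (0.811) and the family gene Ly6k (0.787), and Ly6c1, after Ly6a, was most like Lrg1 (0.818) and Podxl (0.797). Ly6c2 stood nearest to the myeloid adaptor genes Tyrobp (0.863) and Fcer1g (0.782) and to Il10rb (0.783), but by Spearman's rho to Arpc1b (0.657), Rreb1 (0.653) and N4bp1 (0.649). The B or plasma cell-like cells, which had the highest Ly6c2, were under 50 in each set and gave no sum. Cd24a was most like Cystm1 (0.966) and the luminal keratins Krt8 (0.964) and Krt18 (0.958). Ly6e was near Sil1 (0.899), Gipc2 (0.898) and Sort1 (0.893). The highest values for Cd52 were lower, 0.788 with Fam96a, 0.764 with Med12 and 0.761 with Ormdl1.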

How the data were processed

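Single cells from PIN and PCa tissue were dissociated with collagenase and TrypLE and captured with 10x Genomics 3' chemistry. Per the labels and the study's methods, the authors aligned reads with Cell Ranger 3.1.0 to mm10 with hARtg and membrane GFP sequences added, filtered cells and normalised them. The deposited table holds natural log values, ln of 1 plus UMIs per 10000 UMIs of a cell. Counts had been planned for, and whole UMI counts were recovered from the steps of these values, with 100% of values whole within 0.001. The table has 15742 cells, and totals were 134850345 UMIs in set 1 and 187280119 in set 2. The study states a PIN cell number equal to the 6332 cells of set 1 and a PCa number slightly above the 9410 of set 2, which was not used to assign cells.

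Doublet scores came from scrublet (scanpy 1.11.5), run on each set by itself. The automatic limit called 0 cells, and a limit of 0.25 called 155 cells (2.45%) of set 1 and 175 (1.86%) of set 2, which were left out. Cells were integrated by set and clustered in Seurat 5.3.0 (R 4.3.3) with 2000 variable features, 20 dimensions and resolution 0.5, leaving out the members, EGFP, hARtg and the pathway lists. A cluster was named from fixed markers where 3 or more were seen. UMIs were summed by class and set and divided by all UMIs of those cells to give CPM. With 1 library per set there is no replicate, so no test was made. Levels have exact Poisson, shares Clopper-Pearson and ratios conditional binomial 95% intervals (scipy 1.17.1), which cover counting error only. A sum of 0 was set to 3 UMIs. A ratio counted as called past 2-fold. The share of all features called was taken over those with a mean of 10 CPM or more, and members were counted over all with a ratio, with the count at that mean given where it differed. Cells were thinned to 3000 UMIs for shares. The method was tested on simulated counts.

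The members and lists were chosen with earlier results of these data known. Named were the 8 members, for each the 3 features most like it over the sums, and pathway genes past 2-fold in both sets, with markers where a value needed them. Alternatives were resolution 1.0, no integration, doublets kept, other EGFP limits, 1.5-fold, equal weight per cell, thinning, and other class boundaries. The clusterings of epithelial and of leukocyte-like cells by themselves were used as alternatives after the data were seen. Protein sequences were not analysed here.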

Additional observations from a re-analysis of the deposited data

Results flagged for a closer look

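The results here had opposite signs in classes or sets under the same comparison. The differences between them were not tested, since each set is 1 library.

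Ly6c1 in set 2 against set 1 had log2 ratios of -2.33 in luminal-like, -1.46 in basal-like, -0.96 in endothelium-like and -1.13 in leukocyte-like cells, but 0.69 in proximal-like cells. The leukocyte-like ratio includes the small group of cells led by epithelial genes. Ly6e in the same comparison had -0.91 in luminal-like and -0.64 in proximal-like cells, but 0.64 in endothelium-like and 1.36 in leukocyte-like cells. Ly6d by EGFP had -0.98 in basal-like cells of set 1 and -0.93 in those of set 2, but 1.85 in proximal-like cells of set 2. Cd24a by EGFP had -0.84 in luminal-like cells of set 1 and -0.88 in those of set 2, but 1.01 in proximal-like cells of set 2. The proximal-like values of set 2 set cluster 4 mostly against cluster 10.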

How the results depend on the processing

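No paired analysis was possible because there was 1 library for each lesion. Of 97 recomputed counts of members past 2-fold, 77 stayed within 1.5 times the count in the report and 20 did not. Over all members' ratios, 329 of 644 recomputed values stayed within the counting interval of the reported one, 313 moved and 2 reversed. Of 120 shares of cells recomputed at 6000 UMIs, 86 fell outside the counting interval at 3000, and of 11 shares of all features past 2-fold, 7 moved by over 1.5 times with no limit on the mean. Of 268 recomputed ratios of members past 2-fold, 266 had the same direction and 243 were still past 2-fold. The 2 that reversed were Psca by EGFP in luminal-like cells of set 2, with a log2 ratio of -3.51 without integration, and Ly6c2 by EGFP in luminal-like cells of set 1, with -0.85 where called doublets were kept. The cause was not tested.

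The share of all features past the same limit was not computed for the settings below. Nothing is therefore read from these counts of members. Past 1.5-fold in place of 2-fold, the counts by EGFP were 5 in luminal-like, 5 in proximal-like cells of set 1, and 5 in luminal-like and 5 in basal-like cells of set 2, and between the sets 4 in proximal-like and 4 in endothelium-like cells. Without integration they were 5 (EGFP, luminal-like, set 2), 3 (EGFP, basal-like, set 2) and 3 (sets, proximal-like). With the Krt6a/Clu-high and Svs-high clusters counted as luminal-like they were 4 (EGFP, proximal-like, set 1) and 6 (sets, proximal-like). With equal weight per cell the count was 4 (EGFP, proximal-like, set 1). With 1 or more EGFP UMIs as the upper side it was 1 in proximal-like and 2 in basal-like cells of set 1. Thinned to 3000 UMIs before the split it was 1 in proximal-like cells of set 1 and 1 in luminal-like cells of set 2. At resolution 1.0 it was 0 and with called doublets kept 2 (both EGFP, basal-like, set 2). Within EGFP-high cells 2 members differed between the sets in proximal-like cells, and within EGFP-0 cells 6 did in leukocyte-like cells. No replicate could be left out, and the EGFP-0 split of set 2 was not run, as its EGFP-0 sides held under 50 cells.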

Other observations

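Another Ly6/uPAR gene, Cd59a, which encodes a GPI-anchored inhibitor of complement, differed between the barcode sets in every class tested and is named here after its values were seen. Luminal-like cells held 327 UMIs per 1000000 in set 2 and 4.69 in set 1, a log2 ratio of 6.12 (5.92 to 6.34). Proximal-like cells held 137 and 0.419 (23 UMIs), a log2 ratio of 8.35. Basal-like cells held 31.0 and 1.29, a log2 ratio of 4.58, and endothelium-like cells 90.1 and 13.9 (4 UMIs). In leukocyte-like cells there were 72 UMIs in set 2 and 0 in set 1. The deposited data alone do not show whether this follows the lesion, the age of the mice, the animals or the libraries, and it was not tested. Gpihbp1, the endothelial family member that carries lipoprotein lipase, was 3417 in endothelium-like cells of set 2 and 823 in the 40 cells of set 1. The receptor gene Plaur was 45.4 and 362 in luminal-like cells of sets 2 and 1, and 689 and 1391 in proximal-like cells.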
